A study of Mus musculus with 4 samples.

Results

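Aminoacyl-tRNA synthetases are the enzymes that join each amino acid to its transfer RNA, and 35 of their genes were followed here among 18194 named genes on 4 expression arrays of mouse colonic epithelium. Members were chosen by gene symbol alone: a capital letter (the amino acid's letter) followed by ars and an optional 1 or 2, together with Eprs, Farsa and Farsb. The 16 genes whose symbol ends in 2 were taken as mitochondrial and the other 19 as cytosolic. Symbols are those of the platform annotation, in which most cytosolic genes do not yet carry the number 1.

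All 4 arrays held RNA from the colon of male mice, with 1 array per group. The first pair came from H2B-GFP mice, in which doxycycline switches on a histone fused to green fluorescent protein through a tetracycline-responsive element. The mice were labelled for 7 days and left without doxycycline for 2 days, and crypt epithelial cells were then sorted into GFPhigh, which had retained the label and are described as non-proliferating, and GFPlow, which had diluted it and are described as proliferating. Both groups of this pair carried the same transgene and had the same exposure to doxycycline. The second pair came from mice with a doxycycline-inducible β-catenin gene, β-catenin being the effector of canonical Wnt signalling. Crypts were isolated from untreated mice (Dox minus) or from mice that drank doxycycline at 2.0 mg/ml for 5 days (Dox plus), so that the drug and the induction cannot be told apart. The sources used here do not state the cell type in which the transgenes were driven, how many mice stand behind an array, or their age and strain. Because a group is a single array, no difference has an error or a test, and precision is limited by having only 4 arrays.

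Cells use separate sets of synthetases for their separate protein factories. Cytosolic enzymes charge transfer RNAs for ribosomes in the cytosol, and several of them are held together with scaffold proteins in the multisynthetase complex. Mitochondrial enzymes are encoded in the nucleus, are imported, and charge transfer RNAs for the small set of proteins made inside the organelle. The genes Gars and Kars supply both compartments, and mitochondrial glutamine transfer RNA is charged indirectly, through the glutamyl enzyme and an amidotransferase. In intestinal crypts the dividing cells of the lower crypt are the ones that build most new cell mass, and amino acid supply acts on cytosolic synthetase genes through the transcription factor ATF4.

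Expression is given as log2 values, so a difference of 1 is 2-fold. A gene counted as measured in a pair when at least 1 of its arrays reached a floor of 5, and lower values were set to that floor before the difference was taken. The 13 epithelial markers were all above the floor on every array, with a mean of 14.42 in GFPhigh, 14.20 in GFPlow, 14.07 in Dox minus and 14.12 in Dox plus. All 4 endothelial and all 4 smooth muscle markers were under the floor on every array. T cell, B and plasma cell, myeloid and fibroblast lists had at most 3 markers at the floor or above on an array, with mean levels from 2.74 to 4.74. The pairs stood apart from each other, with 18S ribosomal RNA controls at 13.03 and 13.29 in the sorted pair and at 3.25 and 2.56 in the crypt pair, so differences were taken only within a pair. Cytosolic synthetase genes had median levels of 10.28 in GFPhigh, 10.89 in GFPlow, 10.32 in Dox minus and 10.88 in Dox plus. None was under the floor. Mitochondrial genes had median levels of 8.04, 8.17, 7.42 and 7.75 on the same arrays, and Ears2 and Mars2 had values under the floor in the sorted pair.

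The first comparison set GFPlow against GFPhigh and asks how synthetase expression differs between proliferating and label-retaining crypt cells. Most synthetase genes had higher values in GFPlow, by small amounts in most cases. Of 19 cytosolic genes, 16 were above 0 and 3 below, with a median difference of 0.44 (1.35-fold). Over all 9381 measured genes 53.2% were above 0 and 46.8% below, and the median was 0.04. Only Vars and Farsa among the cytosolic genes were 2-fold or more higher, against 8.81% of all measured genes, and 0 were 2-fold or more lower, against 4.30%.

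Vars, the valyl enzyme, stood farthest from the rest. It read 5.19 in GFPhigh, 7.62 in GFPlow, 6.76 in Dox minus and 7.69 in Dox plus. Its difference in the sorted pair was 2.43 (5.40-fold), larger than in all but 0.863% of measured genes. The GFPhigh value lay close to the floor and the gene had a single probe set, and with a floor of 6 the difference was 1.62. Farsa, the alpha subunit of the phenylalanyl enzyme, read 8.42 in GFPhigh and 9.42 in GFPlow, a difference of 1.0 that sat on the 2-fold line. In the crypt pair it read 8.24 in Dox minus and 9.26 in Dox plus. Its partner Farsb, the beta subunit, differed by 0.72, and by 1.02 and 1.16 in its other measured probe sets, so both subunits of this enzyme were on the higher side in GFPlow.

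Eprs, a fused enzyme for glutamate and proline that belongs to the multisynthetase complex, was next at 0.76, with 10.36 in GFPhigh, 11.12 in GFPlow, 10.51 in Dox minus and 11.11 in Dox plus. The other cytosolic genes above 0 ran from Tars (0.72), Iars (0.68), Lars (0.58), Yars (0.56) and Nars (0.52) through Sars (0.44), Wars (0.43), Rars (0.39) and Aars (0.38) to Hars (0.21), Qars (0.19) and Mars1 (0.13). The genes with lower values in GFPlow were within 0.16 of 0. Kars, the lysyl enzyme, read 11.43 in GFPhigh, 11.27 in GFPlow, 10.34 in Dox minus and 10.58 in Dox plus. Gars, the glycyl enzyme, read 11.49, 11.38, 11.66 and 12.35 on the same arrays. Cars, the cysteinyl enzyme, read 8.0, 7.90, 8.23 and 8.86. The genes known to serve both compartments, Gars (-0.11) and Kars (-0.16), were thus the 2 lowest of the cytosolic set in the sorted pair. Cars, at -0.09, lay close to Gars. Without Gars and Kars the median of the other 17 was 0.52, and leaving out the 2 lowest genes cannot lower a median.

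Mitochondrial synthetase genes were more scattered in the sorted pair. Of 15 measured, 10 were above 0 and 5 below, with a median of 0.32 (1.24-fold), and 3 were 2-fold or more higher against the 8.81% of all genes. Ears2, the glutamyl enzyme, read 3.75 in GFPhigh, 6.97 in GFPlow, 6.12 in Dox minus and 7.49 in Dox plus. Since GFPhigh was under the floor, its difference of 1.97 is a lower bound, at least 3.91-fold with a floor of 5 and at least 0.97 (log2) with a floor of 6. Yars2, the tyrosyl enzyme, read 7.85 in GFPhigh, 8.98 in GFPlow, 8.69 in Dox minus and 9.84 in Dox plus. Its difference in the sorted pair was 1.13. Its second probe set, at 4.41 in GFPhigh and 5.22 in GFPlow, gave 0.22, a lower bound because GFPhigh was under the floor. Iars2, the isoleucyl enzyme, read 9.79, 10.82, 11.12 and 11.03, a difference of 1.02 in the sorted pair. Its second probe set, at 5.26 and 5.24 near the floor, gave -0.02. These 3 genes were therefore past 2-fold through their chosen probe set. With the mean of probe sets 1 mitochondrial gene, Ears2, was, against 8.62% of all measured genes.

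The lowest mitochondrial differences in the sorted pair were those of Cars2, Hars2 and Lars2. Cars2, the cysteinyl enzyme, read 8.79 in GFPhigh and 8.35 in GFPlow (-0.45), while its second measured probe set gave 0.47. In the crypt pair Cars2 read 6.91 in Dox minus and 7.48 in Dox plus. Hars2, the histidyl enzyme, read 8.07 in GFPhigh and 7.81 in GFPlow (-0.26), and its second probe set gave -0.30. Lars2, the leucyl enzyme, read 10.33 and 10.14 in the sorted pair (-0.19) and 7.58 and 7.48 in the crypt pair. Aars2, at 6.84 and 6.82, and Vars2, at 8.01 and 8.0, each differed by -0.01 in the sorted pair. Mars2, the methionyl enzyme, read 4.92 in GFPhigh and 2.99 in GFPlow and was not measured there. The other genes were Rars2 (0.74), Wars2 (0.58), Tars2 (0.41), Pars2 (0.38), Fars2 (0.32), Nars2 (0.27) and Sars2 (0.27).

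**Figure D1:**
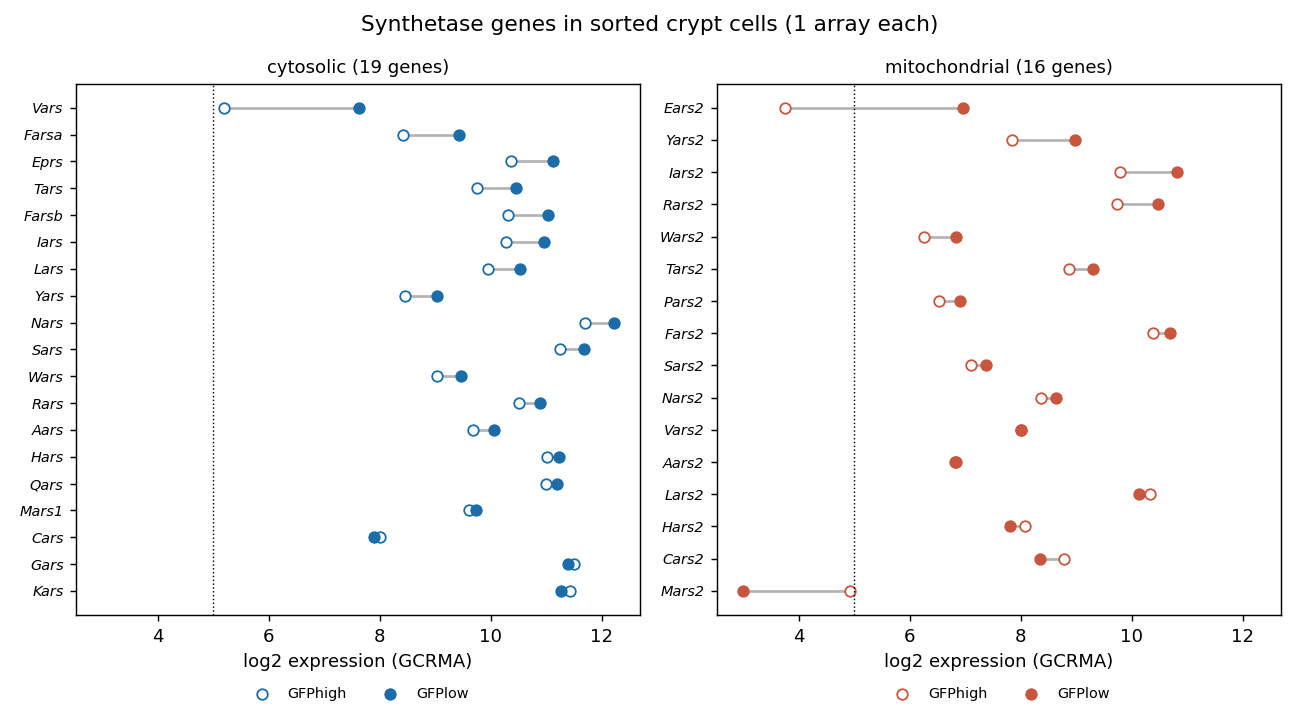
Levels of the 19 cytosolic and 16 mitochondrial synthetase genes in GFPhigh (open circles) and GFPlow (filled circles), 1 array each, on the x axis as log2 expression, with genes on the y axis ordered by their difference and the floor of 5 as a dotted line. Most filled circles lie to the right of the open circles, with the widest gaps for Vars (5.19 to 7.62) and Ears2 (3.75 to 6.97). Mars2 has both values under the floor.

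Markers of several crypt cell types moved with the sorted pair. The mean level of 9 proliferation markers was 7.34 in GFPhigh and 9.85 in GFPlow, with all 9 above 0. That of 8 goblet cell markers was 12.94 and 13.89, with 7 above 0. Among these goblet cell markers Spdef (2.94) and Atoh1 (2.64) differed most, followed by Agr2 (0.99), Muc2 (0.69) and Fcgbp (0.35). Clca1 (0.01), Tff3 (0.08) and Zg16 (-0.09) were near 0. The 7 absorptive colonocyte markers were lower in GFPlow, from 14.42 to 13.66, with 0 above 0. The 7 enteroendocrine markers had 8.07 and 7.56, with 5 of 6 measured below 0. Their part in the synthetase differences was not tested. In these bulk samples, fewer cells of a type and less RNA per cell cannot be told apart.

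The second comparison set Dox plus against Dox minus and asks what β-catenin induction does in the crypt. Synthetase genes as a set had higher values in Dox plus. All 19 cytosolic genes were above 0, from 0.22 to 1.09, with a median of 0.65 (1.57-fold), while of all 9537 measured genes 55.0% were above 0 and 45.0% below, with a median of 0.06. The differences were uniform in direction and modest in size: 3 cytosolic genes were 2-fold or more higher, against 6.93% of all measured genes, and 0 were 2-fold or more lower, against 5.35%. All 19 stayed above 0 under quantile and loess scaling of the pair. With each scaling 1 gene was 2-fold or more higher, against 5.62% and 6.57% of all measured genes.

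Yars, the tyrosyl enzyme, had the largest cytosolic difference. It read 6.74 in Dox minus and 7.84 in Dox plus, a difference of 1.09 (2.13-fold), and 8.46 in GFPhigh and 9.02 in GFPlow. Tars, the threonyl enzyme, read 10.29 in Dox minus against 11.33 in Dox plus (1.04), and 9.75 and 10.46 in GFPhigh and GFPlow. Farsa followed at 1.02. With quantile scaling Yars was at 0.96 and Farsa at 0.89. Vars (0.94) and Mars1 (0.93) lay just under 2-fold.

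A middle group of cytosolic genes differed by 0.49 to 0.72. It held Nars (0.72), Gars (0.69), Rars (0.68), Iars (0.65), Wars (0.65), Cars (0.63), Eprs (0.60), Sars (0.56), Farsb (0.50) and Lars (0.49). Iars, the isoleucyl enzyme, gave 1.49 in its second probe set and Farsb gave 0.77 and 0.94 in its other measured probe sets, so the strongest probe set was the lowest for both. The smallest differences were those of Aars (0.35), Qars, Kars and Hars. Qars, the glutaminyl enzyme, read 11.99 in Dox minus against 12.31 in Dox plus (0.32), and 10.99 and 11.19 in the sorted pair. Its other measured probe sets in the crypt pair gave 0.37 and -0.33. Kars differed by 0.24. Hars, the histidyl enzyme, read 11.04 and 11.26 in the crypt pair (0.22) and 11.01 and 11.22 in the sorted pair (0.21), nearly the same small step in each.

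Mitochondrial synthetase genes were spread more widely in the crypt pair, from -0.11 to 1.37. Of 16 measured, 13 were above 0, and 6 were 2-fold or more higher, against 6.93% of all measured genes. The median was 0.60 (1.51-fold), and 0.29 over 13 genes without probe sets that can match several transcripts. Ears2 led with 1.37. Wars2, the tryptophanyl enzyme, read 6.38 in Dox minus against 7.75 in Dox plus (1.36), and 6.26 and 6.84 in the sorted pair, and its second probe set gave 0.85. Pars2, the prolyl enzyme, read 6.53 and 7.81 in the crypt pair (1.28), and 6.53 and 6.91 in the sorted pair. Yars2 differed by 1.15, or by 0.52 in its second probe set, and Mars2 read 5.81 and 6.84, a difference of 1.03.

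The call of Hars2 depended on the probe set. Its chosen probe set read 6.43 in Dox minus against 7.75 in Dox plus (1.32), and the other read 6.63 and 6.49 (-0.14). The remaining mitochondrial genes above 0 were Rars2 (0.72), Tars2 (0.62), Cars2 (0.58), Nars2 (0.29), Vars2 (0.25), Sars2 (0.16) and Fars2 (0.05). Vars2 read 8.13 and 8.39. Lars2 (-0.11), Iars2 (-0.09) and Aars2 (-0.03) were below 0 by small amounts, with Aars2 at 7.33 and 7.30. The second measured probe set of Lars2, at 5.22 and 5.90, gave 0.68. Without Hars2, 5 of 15 mitochondrial genes were past 2-fold, against 6.93% of all measured genes, and the median was 0.58.

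**Figure D2:**
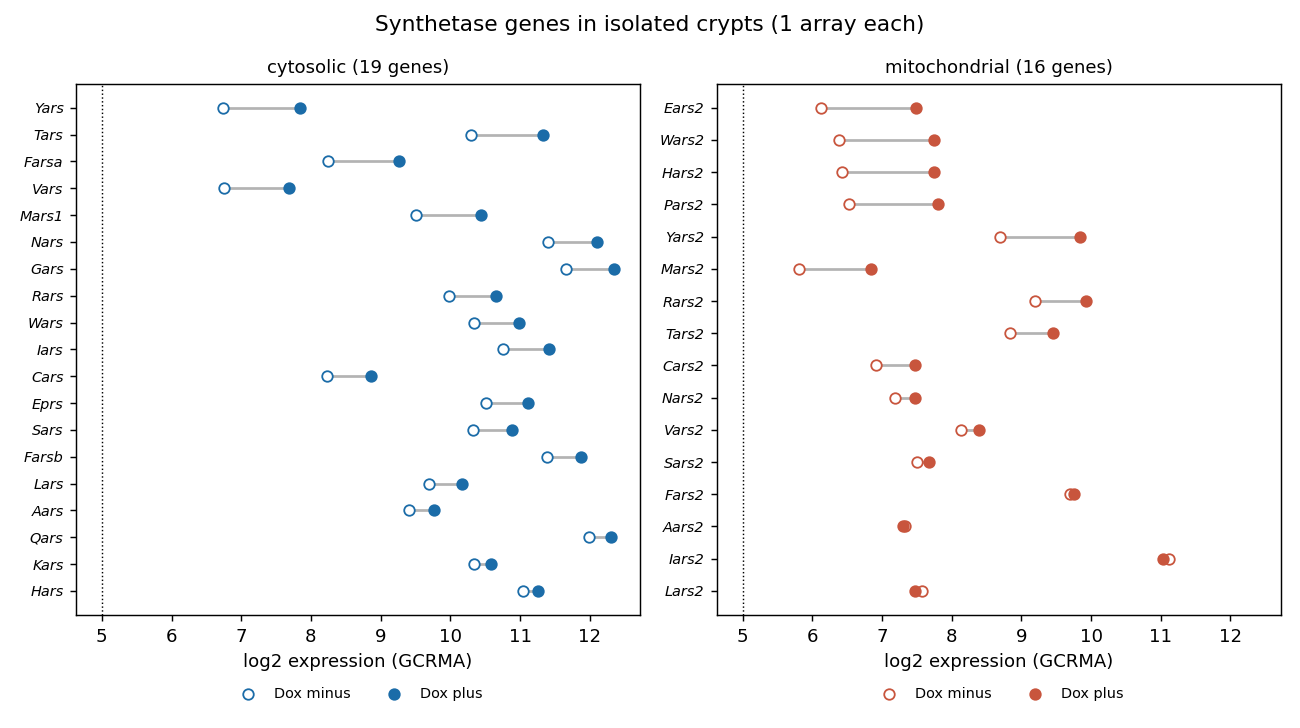
Levels of the same genes in crypts of untreated mice (Dox minus, open circles) and of mice given doxycycline (Dox plus, filled circles), 1 array each, on the x axis as log2 expression, ordered by their difference, with the floor of 5 as a dotted line. In the cytosolic panel all 19 filled circles lie to the right. In the mitochondrial panel the 6 uppermost genes, from Ears2 (1.37) to Mars2 (1.03), have the widest gaps, and Aars2, Iars2 and Lars2 lie slightly the other way.

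Other gene lists moved in the crypt pair as well. The 7 enteroendocrine markers had a mean level of 10.07 in Dox minus and 7.35 in Dox plus, all lower, and the 8 goblet cell markers had 13.71 and 13.24. The 9 proliferation markers had 10.14 and 10.07, with 4 above 0 and 5 below. The plasma and B cell list had a mean of 4.28 and 3.38 and the fibroblast list 4.53 and 3.92, with at most 2 markers at the floor or above. Their part in the synthetase differences was not tested.

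The pairs share no array, so the differences of each gene can be set side by side. Of 34 synthetase genes measured in both pairs, 25 were above 0 in both, against 3375 of 9023 genes overall. All 19 cytosolic genes were above 0 in Dox plus, so the 16 above 0 in GFPlow had to be among them. The other 3, Cars, Gars and Kars, were above 0 only in Dox plus. Gars was at -0.11 in the sorted pair and 0.69 in the crypt pair, and Cars at -0.09 and 0.63. Of 34 genes, 22 had the larger difference in the crypt pair, against 4779 of the 9023. Across the 34 genes the differences correlated at Pearson r = 0.39 and Spearman rho = 0.41, against 0.29 and 0.39 across all 9023 genes, as a description of genes that share their arrays.

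Ears2, Yars2 and Farsa were 2-fold or more higher in both pairs with their chosen probe sets and the floor of 5. With quantile scaling Farsa was at 0.96 in the sorted pair and 0.89 in the crypt pair. The second probe set of Yars2 gave 0.22 or more in the sorted pair and 0.52 in the crypt pair. Ears2 was at 0.97 or more in the sorted pair with a floor of 6. Vars and Iars2 were past 2-fold only in the sorted pair, at 2.43 and 1.02 against 0.94 and -0.09 in the crypt pair. Yars, Tars, Wars2, Pars2 and Hars2 were past it only in the crypt pair, as was Mars2, which was not measured in the sorted pair. Whether these differences differ between the pairs was not tested. Over all measured genes 8.81% were 2-fold or more higher in the sorted pair and 6.93% in the crypt pair. The share of all genes past 2-fold in both pairs was not counted, so the overlap has no background beside it and is a list only.

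**Figure D3:**
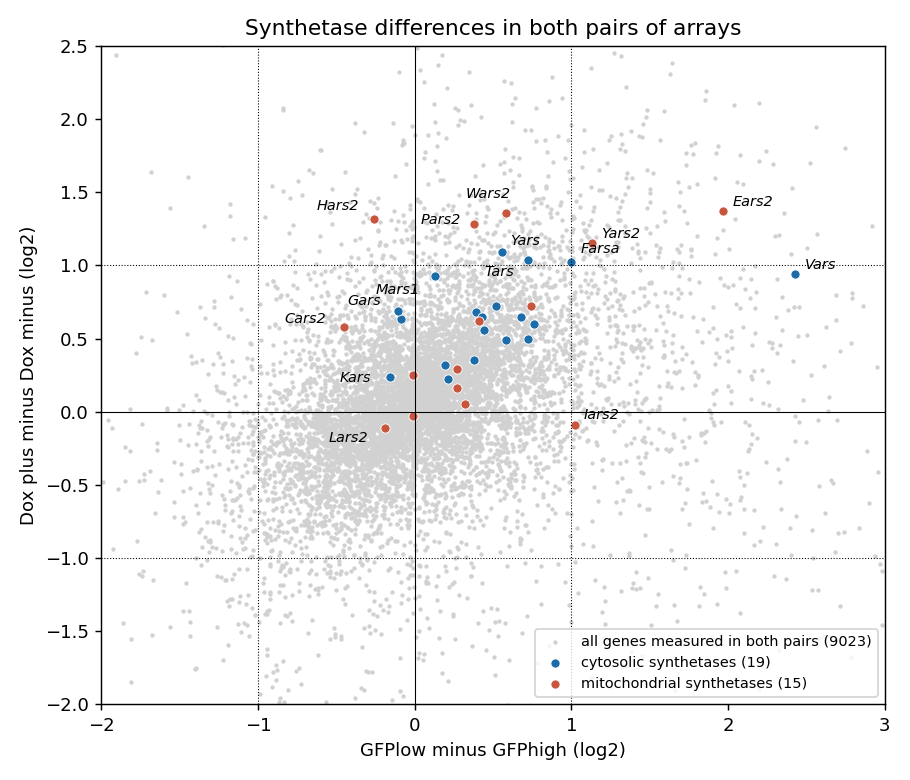
Difference between GFPlow and GFPhigh (x axis, log2) against that between Dox plus and Dox minus (y axis, log2) for 19 cytosolic and 15 mitochondrial synthetase genes, with all 9023 genes measured in both pairs in grey (165 of them lie outside the plotted range). Dotted lines mark 2-fold. No cytosolic gene lies under 0 on the y axis, Vars (2.43 and 0.94) and Ears2 (1.97 and 1.37) lie far to the right, and Iars2 lies to the right at -0.09.

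Enzymes for the same amino acid were also set side by side across the 2 compartments. The cytosolic gene had the larger difference in 10 of 15 gene pairs in the sorted cells, with a median gap of 0.30, and in 10 of 16 in the crypts, with a median gap of 0.39. Farsa and Farsb were each paired with Fars2. Valine gave the widest gap, with Vars at 2.43 and Vars2 at -0.01 in the sorted pair. By their chosen probe sets, glutamate, arginine, tryptophan and tyrosine went the other way in both pairs. For glutamate, Eprs was at 0.76 and Ears2 at 1.97 or more in the sorted cells, and at 0.60 and 1.37 in the crypts. The cytosolic minus mitochondrial gaps of arginine (-0.04) and tyrosine (-0.06) in the crypts were small. Isoleucine and histidine changed order. Iars was at 0.68 and Iars2 at 1.02 in the sorted pair, and at 0.65 and -0.09 in the crypt pair. Hars was at 0.21 and Hars2 at -0.26 in the sorted pair, and at 0.22 and 1.32 in the crypt pair. The Hars2 value in the crypts depended on the probe set, as did the orders for isoleucine in the sorted pair and tyrosine in the crypts. In the sorted pair the second probe sets gave 0.97 for Iars and -0.02, near the floor, for Iars2. The second probe set of Yars2 gave 0.52 in the crypts. In the sorted pair it gave a lower bound of 0.22, which does not set its order against Yars at 0.56. By the chosen probe sets, tyrosine was high on both sides in the crypts, with Yars at 1.09 and Yars2 at 1.15.

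Within the cytosolic set, the 7 multisynthetase complex enzymes (Eprs, Iars, Kars, Lars, Mars1, Qars and Rars) had a median of 0.39 in the sorted pair and 0.60 in the crypt pair. In each pair 0 of them were past 2-fold, while 8.81% and 6.93% of all measured genes were 2-fold or more higher. The other 12 had medians of 0.48 and 0.67. Synthetases fall into class I and class II by the fold of the catalytic domain. The 10 class I genes (with Eprs placed by its glutamyl part, although its prolyl part is class II) and the 9 class II genes had medians of 0.49 and 0.44 in the sorted pair and 0.65 and 0.56 in the crypt pair.

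Several synthetase genes were read by more than 1 measured probe set, which gives a check on the array but not on the mice. Of 18 such genes in each pair, 13 had the same direction in all measured probe sets in the sorted pair and 15 in the crypt pair. In the sorted pair the genes of mixed direction were Cars2, Iars2, Qars, Vars2 and Wars, and in the crypt pair Hars2, Lars2 and Qars. The weakest measured probe set of Qars, at 6.17 in GFPhigh and 4.14 in GFPlow, gave -1.17, whereas the others gave 0.19, 0.41 and -0.34. For Vars2 in the sorted pair the chosen probe set gave -0.01 and the second 0.29.

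Genes that work next to the synthetases were described from fixed lists. The 3 scaffold proteins of the multisynthetase complex were higher in both pairs. Eef1e1 differed by 1.09 in the sorted pair and 1.23 in the crypt pair, Aimp2 by 0.69 and 1.12, and Aimp1 by 0.48 and 0.75. So 1 and 2 of them were 2-fold or more higher, against 8.81% and 6.93% of all measured genes. The cytosolic elongation factor list includes factors that carry charged transfer RNA to the ribosome. It had a median of 0.29 in the sorted pair, with 6 of 7 above 0, and 0.62 in the crypt pair, with 7 of 7. Eef2k, the kinase that inhibits elongation factor Eef2, was the exception in GFPlow at -1.07 and differed by 0.63 in Dox plus. Eef1d, an exchange factor, differed by 0.45 and 0.86.

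Mitochondrial translation factors had medians of 0.37 and 0.54 over 9 genes. The ribosome recycling factor Mrrf, at 0.76 in the sorted pair and 1.02 in the crypt pair, was the only member past 2-fold. Over all measured genes 8.81% and 6.93% were 2-fold or more higher in the sorted and crypt pairs. The 4 genes that finish mitochondrial charging, among them the amidotransferase subunits Gatb, Gatc and Qrsl1, had medians of 0.03 and 0.27 and 0 past 2-fold. The transfer RNA editing and synthetase-like list had medians of 0.30 and 0.71 over 9 measured genes, with 2 and 3 past 2-fold higher, against the same shares. The largest values were those of the editing gene Aarsd1 (1.13) and Pus1, a pseudouridine synthase (1.07), in the sorted pair, and of Pus1 (1.67) and the transfer RNA processing gene Elac1 (1.19) in the crypt pair. Tarsl2, a threonyl synthetase-like gene outside the symbol rule, differed by 0.07 and -0.83, unlike Tars.

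Targets of ATF4 were mixed. Of 17 measured in the sorted pair 6 were 2-fold or more higher (8.81% of all genes) and 0 lower (4.30%), with a median of 0.38. Of 18 in the crypt pair 7 were higher (6.93% of all genes) and 1 lower (5.35%), with a median of 0.83. In the sorted pair the largest values were those of Phgdh, the first enzyme of serine synthesis (2.56), and Asns, the asparagine synthetase (1.76), which differed by 1.95 and 1.06 in the crypt pair. In the crypt pair the largest positive values were those of the serine synthesis enzyme Psat1 (2.38) and the transcription factor Atf5 (1.99). Nupr1 was 2-fold or more lower in Dox plus (-2.36), and the stress factor Ddit3 differed by -0.36 and -0.56. Atf4 itself differed by 0.38 and 0.14. Amino acid transporters went both ways. In the sorted pair 5 of 14 were past 2-fold higher, against the same 8.81% of all genes, and 2 lower, against 4.30%, with the cationic amino acid transporter Slc7a1 at 1.54 and Slc7a9 at -1.24. In the crypt pair 4 of 15 were higher, against 6.93%, and 1 lower, against 5.35%. Slc3a1 was at 2.06, the leucine transporter Slc7a5 at 1.86 and Slc6a14 at -1.34. Slc38a1 was at 1.33 in the sorted pair and 1.44 in the crypt pair.

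**Figure D4:**
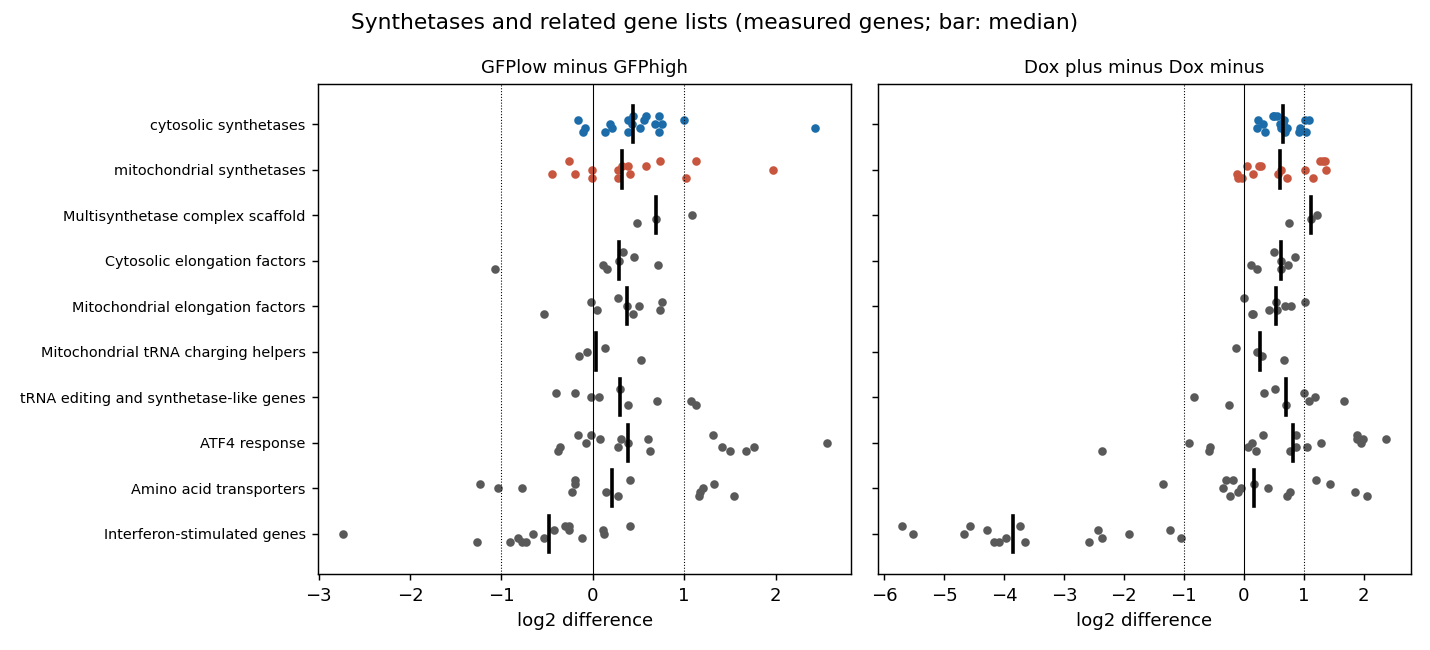
Log2 differences of the measured genes of each list (points) with the list median (bar) for GFPlow minus GFPhigh on the left and Dox plus minus Dox minus on the right, with lists on the y axis and dotted lines at 2-fold. Cytosolic synthetases are tightly grouped above 0 in the right panel (0.22 to 1.09), and interferon-stimulated genes lie far to the left there, with a median of -3.84.

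Wars, the tryptophanyl enzyme, is known as the synthetase gene induced by interferon. It read 9.03 and 9.46 in GFPhigh and GFPlow and 10.34 and 10.99 in Dox minus and Dox plus, with differences of 0.43 and 0.65 near the cytosolic medians. Its other probe sets gave 0.29, 0.32 and -0.56 in the sorted pair and 0.06, 0.29 and 0.35 in the crypt pair, all smaller than the chosen one. The Wars probe set not marked as able to match several transcripts gave 0.32 in the sorted pair and 0.06 in the crypt pair. The 16 measured interferon-stimulated genes all lay at least 2-fold lower after doxycycline, against 5.35% of all measured genes. Their median was -3.84, whereas no probe set of Wars was lower in Dox plus. In the sorted pair that list had a median of -0.48.

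Because the cytosolic genes shared a direction, the RefSeq windows before their transcription starts were searched for 3 short motifs: the core of the ATF4 response element (TGATGNAA), the E-box bound by Myc (CACGTG) and the core of the interferon-stimulated response element (GAAA repeated after 2 free bases), each on both strands. Windows of the 250 bases before the start were found for 26 members, 12 cytosolic and 14 mitochondrial, in the GRCm38.p6 table. The ATF4 core was present in 3 of 12 cytosolic windows (Aars, Gars and Tars) and in 0 of 14 mitochondrial windows, against 3.45% of all 32851 windows of the same length. The E-box was present in 3 of 12 (Aars, Farsb and Iars) and 0 of 14, against 6.02%. The interferon element core was present in 1 of 12, that of Qars, and 0 of 14, against 2.98%. The matches did not overlap each other, and a match describes the letters only.

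The 80-base stretches around the ATF4 core and E-box matches are shown because they are the sequence features that some of the cytosolic genes had in common. They are printed 5′ to 3′ on the strand of the gene, wholly before the start, with the matches in capitals (the ATF4 core appears as its reverse complement). The Aars window precedes a start that lies inside the longest annotated extent of that gene.
Aars, chr8:111033677-111033756, plus strand: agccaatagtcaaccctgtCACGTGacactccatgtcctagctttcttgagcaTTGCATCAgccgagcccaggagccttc
Tars, chr15:11399659-11399738, minus strand: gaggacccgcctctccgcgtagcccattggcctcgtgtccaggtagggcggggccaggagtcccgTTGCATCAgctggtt
Gars, chr6:55037921-55038000, plus strand: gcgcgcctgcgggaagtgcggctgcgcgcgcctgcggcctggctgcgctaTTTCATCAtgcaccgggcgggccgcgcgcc
Iars, chr13:49682024-49682103, plus strand: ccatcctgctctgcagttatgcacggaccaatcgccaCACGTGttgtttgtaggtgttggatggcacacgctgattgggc
Farsb, chr1:78488898-78488977, minus strand: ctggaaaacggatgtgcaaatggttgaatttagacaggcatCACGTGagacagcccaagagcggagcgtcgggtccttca
The genes with an ATF4 core differed by 0.35 (Aars), 1.04 (Tars) and 0.69 (Gars) in the crypt pair and by 0.38, 0.72 and -0.11 in the sorted pair. Those with an E-box differed by 0.35 (Aars), 0.65 (Iars) and 0.50 (Farsb) in the crypt pair and by 0.38, 0.68 and 0.72 in the sorted pair. Both sets lay within the range of the other cytosolic genes, not all of which had a window to search.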

How the data were processed

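Total RNA extracted with Trizol was labelled as biotin cRNA and hybridised to 1 array per group, per the labels' protocols. The authors deposited log2 expression values for 45101 probe sets. Per the submitters' processing notes they come from GCRMA, whose version and batch of arrays the sources used here do not state. GCRMA models background from probe sequence, so low values carry little information. The log2 scale was read from the values (0.47 to 16.27).

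Of the probe sets, 34958 had 1 gene symbol in the platform annotation and were used, 932 had several and 9211 none. For each gene the probe set of highest average over the 4 arrays was kept. All 35 members were found in the RefSeq gene table. Values under a floor of 5 were set to it, and a difference of 1 or more in log2 was counted as 2-fold. No test was run, since no group had a second array. Values on all 4 arrays are given for members past 2-fold and for the 3 highest and 3 lowest of each compartment and comparison. They are also given for Wars and for members with probe sets of mixed direction. Of other lists, selected members are named, mostly among those with the largest absolute values. The computation was tested on simulated data. The alternatives were other floors, quantile and loess scaling (span 0.4), the mean of probe sets, fewer probe sets, a 1.5-fold threshold and leaving out Gars and Kars. Python 3.11.15, pandas 2.3.3 and statsmodels 0.14.6 were used. Members and lists were chosen with earlier results of these data known.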

Additional observations from a re-analysis of the deposited data

How the results depend on the processing

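Medians of the synthetase sets kept their sign under all alternatives run. The cytosolic median ranged from 0.40 to 0.52 in the sorted pair and from 0.59 to 0.68 in the crypt pair, and the mitochondrial median from 0.27 to 0.32 and from 0.29 to 0.65. The mitochondrial median of the crypt pair was 0.48 with quantile normalization. It was 0.29 without the probe sets whose suffix (_x_at, _s_at, _a_at) marks possible matches to several transcripts, where 13 genes were left. Counts past 2-fold were small and moved more. In the sorted pair, 1 cytosolic gene was past 2-fold higher with quantile normalization, 1 with loess and 1 without such probe sets. Of all measured genes 8.43%, 8.76% and 8.74% were, in that order. Without such probe sets 1 cytosolic gene, Qars, was 2-fold lower, among 391 genes in all. At 1.5-fold, 6 cytosolic genes were higher. Without a floor 1 mitochondrial gene, Mars2, was 2-fold lower in GFPlow, against 525 of all 18194 genes. With the mean of probe sets 1 was higher, against 8.62% of all measured genes. In the crypt pair, 1 cytosolic gene was higher with quantile normalization and 1 with loess, against 5.62% and 6.57% of all measured genes. At 1.5-fold, 12 were higher. The share of all genes past 1.5-fold was not counted for either pair, so the counts of 6 and 12 have no background beside them. The crypt difference of Hars2 reversed to -0.14 without such probe sets, which leaves its other probe set. Medians within 0.1 (log2) and counts within 1.5 times were taken as unchanged. No paired analysis was possible because each group has 1 array. Signal near the floor limits Ears2, Mars2, Vars and the second probe set of Yars2 in the sorted pair.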

Other observations

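Lars2 differed more between the pairs of arrays than within them. Its strongest probe set read 10.33 and 10.14 in GFPhigh and GFPlow, and 7.58 and 7.48 in Dox minus and Dox plus, while its second measured probe set read 5.51, 5.01, 5.22 and 5.90. The 18S ribosomal RNA control probe sets also stood apart between the pairs, at 13.03 and 13.29 against 3.25 and 2.56. Their part in the Lars2 values was not tested, and the pairs differ in mice, transgene and sorting.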
